A study of Mus musculus with 18 samples.

Results

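Long-term hematopoietic stem cells (LT-HSC) of the mouse fetal liver (FL) were compared with LT-HSC of the adult bone marrow (BM) over all genes measured, as the difference FL minus BM. The comparison took in 6 of the 18 arrays of the study, found by their titles, with 3 arrays of FL LT-HSC and 3 of BM LT-HSC, lettered a, b and c in each group. The study measured RNA of LT-HSC, of short-term stem cells (ST-HSC) and of multipotent progenitors (MPP), sorted from either source, on Clariom S expression arrays, with 3 arrays in each of the 6 groups. FL cells came from C57Bl/6J embryos of stage E13.5, and BM cells from adult C57Bl/6J mice 3 to 12 months old. Both came from the LSK fraction (no lineage markers, with Sca-1 and Kit), divided by Cd150 and Cd48; the sources used here do not give the gates. The labels name no mutant allele and no agent in the stage, strain and cell type fields. The free-text descriptions nevertheless speak of transplanted marrow. They give BRSST sgRNA and sgEzh2 for FL LT-HSC a, and BRSST sgRNA and sgLuc for FL LT-HSC b and c. For the 3 BM arrays of LT-HSC they give sgLuc. The other FL arrays described with sgEzh2 are ST-HSC a, MPP a and MPP b, which entered the fit and the comparisons with ST-HSC and MPP. The titles and the source and stage fields were followed. Whether the 3 arrays of a group stand for separate animals or pools of embryos is not stated, so p-values measure the spread between these samples only, which may be technical. That spread was 1 estimate per gene, pooled over the 6 groups of the 18 arrays. The lowest correlation within a group was 0.960 in BM and 0.979 in FL LT-HSC, 0.976 and 0.987 in ST-HSC, and 0.992 and 0.993 in MPP. The pooled errors may therefore be too small for LT-HSC.

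LT-HSC are the blood stem cells that can rebuild all blood lineages over the long term after transplantation. In the mid-gestation liver they divide and expand, whereas most of those in adult marrow rest outside the cell cycle, held in a niche by adhesion receptors and signals such as Cxcl12 and Kit ligand. Fetal stem cells carry a program centred on Lin28b, an RNA-binding protein that blocks maturation of let-7 microRNAs and so permits its targets Igf2bp3 and Hmga2, and several imprinted growth genes are known to be high in fetal tissues and silenced after birth.

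The sort markers were read first. Kit was at 13.29, 13.18 and 13.28 in FL and 13.26, 13.24 and 12.81 in BM (log2 signal, arrays a, b and c in this order here and below), and Slamf1, which encodes Cd150, was at 9.12, 9.47 and 9.35 in FL and 9.95, 9.82 and 9.20 in BM. Neither gene passed the test, and their arrays overlapped. Without BM c, however, Slamf1 was called lower in FL, at -0.58 (adjusted p = 0.034) against -0.35 ± 0.18 (adjusted p = 0.318) with it. Cd48, the marker that LT-HSC should lack, was at 9.79, 9.99 and 9.57 in FL and 9.58, 9.98 and 11.40 in BM, with BM c the highest of the 6, and its difference was -0.53 ± 0.3 with BM c and 0.00 without it. BM c was singled out for its high Cd48 and neutrophil genes, so its excess in these restates that choice. Flt3, a receptor of multipotent and lymphoid progenitors, was at 7.47, 7.46 and 7.51 in FL and 7.44, 7.0 and 7.13 in BM. Array BM c stood apart in other ways, with 563 genes over 2-fold above the mean of BM a and b and 699 over 2-fold below it. By the same measure the other 5 arrays had 29 to 110 genes above and 7 to 140 below the mean of the other arrays of their group. It correlated at 0.960 with each of BM a and b, which correlated at 0.991 with each other, and the FL arrays correlated at 0.979 to 0.989. BM c and FL b had the narrowest spread of the 6 arrays, with interquartile ranges of 2.61 and 2.71 against 3.02 to 3.06, and their deviations from the group means correlated at 0.472, the highest value between an FL and a BM array. FL c did not stand apart over all genes, with 110 genes above and 7 below, and was singled out for Alb, the albumin gene of hepatocytes, at 8.70, 8.82 and 11.79 in FL and 6.83, 6.50 and 7.15 in BM. The Y-linked genes Kdm5d, at 7.84, 7.63 and 7.79 in FL and 4.88, 4.07 and 4.61 in BM, and Uty, at 7.15, 7.37 and 6.92 in FL and 3.89, 3.94 and 4.17 in BM, were high in each FL array, whereas another, Eif2s3y, at 5.43, 4.85 and 4.83 in FL and 4.8, 4.50 and 4.98 in BM, did not pass (0.28 ± 0.20). The labels give no sex, so the sex of the animals and the source cannot be told apart. Ezh2, the gene named in the descriptions, was at 10.63, 10.83 and 10.68 in FL and 10.34, 10.62 and 10.57 in BM, where FL a was the lowest FL array and above all BM arrays.

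Of 19505 genes, 1495 (7.66%) were called, at a Benjamini-Hochberg adjusted p under 0.05 in limma's fit over the 18 arrays. FL LT-HSC had higher signals for 601 genes (3.08%) and lower signals for 894 (4.58%). Counts of list members given below are to be read against these shares. The larger differences lay mostly on the lower side, with 438 genes lower and 130 higher by at least 2-fold, and 118 lower and 15 higher by at least 4-fold. The median difference over all genes was 0.04 on the log2 scale and the median standard error 0.17. The groups did not overlap in 1437 of the 1495 genes, nor in 3711 of all 19505. In bulk RNA of sorted cells, fewer cells with a transcript and less transcript per cell cannot be told apart.

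**Figure D1:**
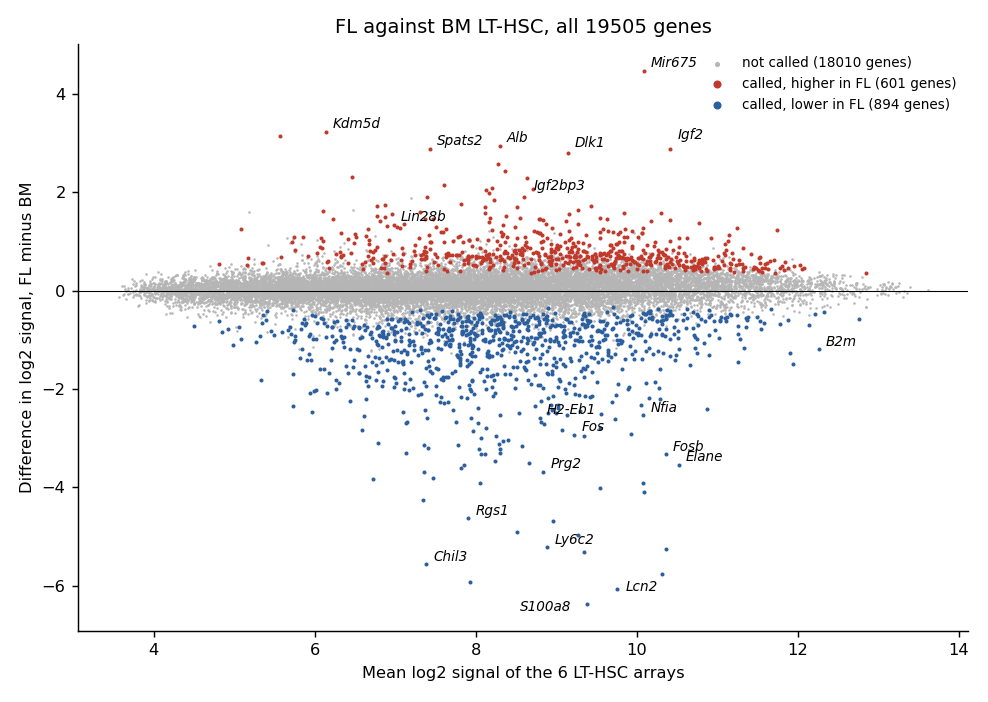
Difference in log2 signal (FL minus BM LT-HSC) against the mean log2 signal of the 6 LT-HSC arrays, 1 point per gene, for 19505 genes. Coloured points are the 601 genes called higher (red) and the 894 called lower (blue) in FL, and the lower side reaches farther, to -6.37 for S100a8, than the higher side, to 4.47 for Mir675.

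Leaving out FL c or BM c moved the counts in different ways. Without FL c, 1164 genes were called (5.97%), 424 higher (2.17%) and 740 lower (3.79%). Of the 1495 genes, 1059 were still called, and the difference shrank by over 1.5 times in 7 of them. Without BM c, 1655 genes were called (8.49%), 496 higher (2.54%) and 1159 lower (5.94%). Here 1132 of the 1495 genes were still called, 523 others were gained, 396 of them lower in FL, and the difference shrank by over 1.5 times in 138 and grew as much in 3. Without both arrays 1614 genes were called (8.27%), 483 higher (2.48%) and 1131 lower (5.8%), with 1022 of the 1495 among them. All 1495 genes kept the sign of their difference in each of these 3 settings. In the 1437 of them whose groups did not overlap, leaving out arrays could not change the sign. Leaving out the other arrays gave 947 genes without FL a (4.86%), 1313 without FL b (6.73%), 1315 without BM a (6.74%) and 1506 without BM b (7.72%), so FL a had the largest effect on the count, by over 1.5 times.

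The genes that rested most on BM c and FL c were named by size. Those called with 6 arrays and not without BM c were led by Fabp4, a fatty acid binding protein of macrophages, adipocytes and endothelium, at 6.87, 6.47 and 7.65 in FL and 9.82, 9.56 and 11.10 in BM. Its difference was -3.16 ± 0.77 (adjusted p = 0.0151) with all arrays and -2.69 (adjusted p = 0.0528) without BM c, and it did not pass without FL a (-3.10), FL b (-2.90) or BM c (-2.69). Cd36, a scavenger receptor, at 4.58, 3.96 and 4.75 in FL and 6.02, 5.30 and 7.40 in BM, went from -1.81 ± 0.46 (adjusted p = 0.0183) to -1.23 (adjusted p = 0.0725), and did not pass without FL b (-1.57) or BM c (-1.23). In both genes BM c was the highest array, and the other BM arrays still lay above all FL arrays. Of the 523 genes that passed once BM c was left out, BM c was the lowest BM array in 395, which follows in part from choosing genes gained by its removal. Among these, Ccdc136, at 6.59, 6.60 and 6.48 in FL and 8.47, 7.79 and 6.40 in BM, went from -1.0 ± 0.33 (adjusted p = 0.0743) to -1.58 (adjusted p = 2.71e-05). Triqk, at 7.51, 7.05 and 7.42 in FL and 9.01, 9.27 and 6.84 in BM, went from -1.05 ± 0.47 (adjusted p = 0.218) to -1.82 (adjusted p = 0.00124). Without FL c the largest call to be lost was Alb, the gene for which that array was singled out. It is described with the hepatocyte genes below.

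**Figure D2:**
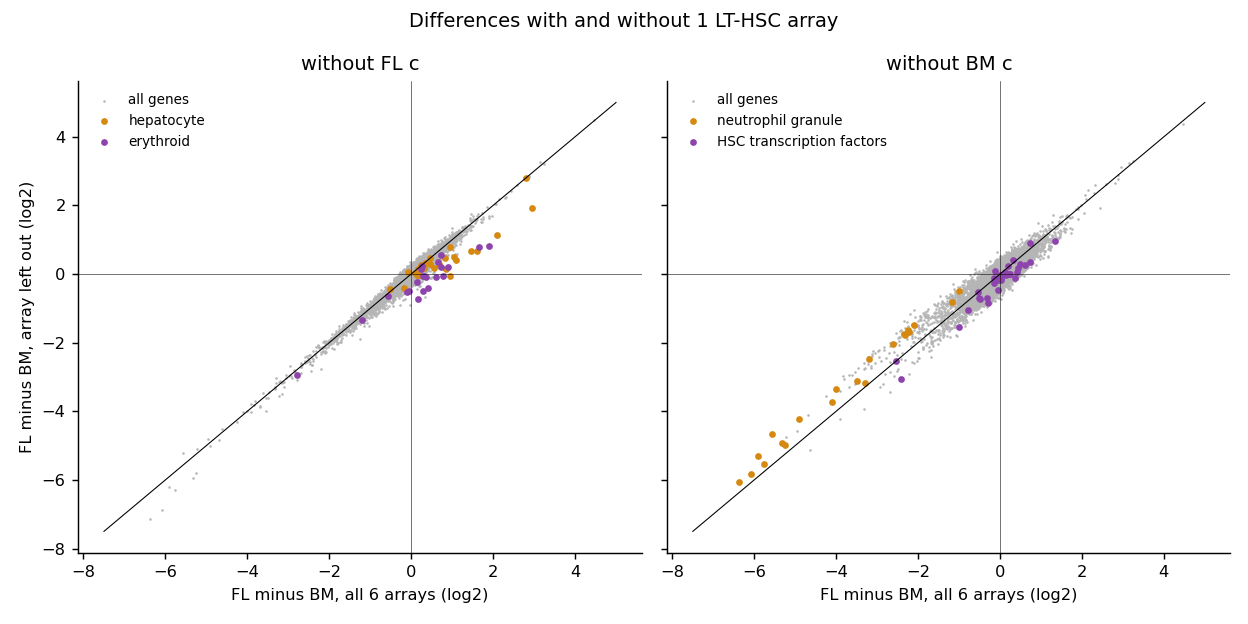
Difference FL minus BM LT-HSC (log2) with all 6 arrays (horizontal axis) against the same without FL c (left panel) or without BM c (right panel), 1 grey point per gene, with the line of equality. Coloured points are the hepatocyte and erythroid lists (left), of which 22 of 26 and 22 of 22 members lie below the line, and the neutrophil granule and HSC transcription factor lists (right), where without BM c the granule genes lie closer to 0, with a median of -3.19 against -3.50, and 10 against 4 of the 34 factors are called lower in FL.

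Of 9 fetal regulators measured, 4 were called higher in FL LT-HSC and none lower, with a median difference of 0.58 (0.36 without BM c). Igf2bp3, which binds and stabilizes growth-related mRNAs, was at 9.6, 9.80 and 9.95 in FL and 7.6, 7.23 and 7.61 in BM, a difference of 2.30 ± 0.18 (adjusted p = 1.12e-07). Lin28b was at 7.92, 7.14 and 7.88 in FL and 6.36, 6.31 and 6.27 in BM, a difference of 1.34 ± 0.26 (adjusted p = 0.00275). Hmga2, a chromatin protein that promotes self-renewal of fetal stem cells, was at 9.43, 9.51 and 9.48 in FL and 8.60, 8.69 and 8.32 in BM, a difference of 0.93 ± 0.19 (adjusted p = 0.0036). Each FL array lay above each BM array in these 3 genes, and FL b was the lowest FL array for Lin28b. Arid3a, a DNA-binding protein of fetal B lymphopoiesis, was at 11.08, 11.01 and 11.25 in FL and 10.37, 10.39 and 10.83 in BM, a difference of 0.58 ± 0.14 (adjusted p = 0.0136), and did not pass without FL c (0.52), BM a (0.50) or BM b (0.51). Mycn, a growth-promoting transcription factor, at 10.98, 10.63 and 10.86 in FL and 10.31, 10.60 and 9.25 in BM, did not pass at 0.76 ± 0.24 (adjusted p = 0.0681). Its BM c value was more than 1 unit below those of BM a and b, and the difference was 0.36 (adjusted p = 0.225) without that array. Lin28a, the paralog of Lin28b, at 7.06, 7.27 and 6.68 in FL and 7.27, 7.17 and 8.23 in BM, and Sox17, a regulator of fetal stem cells, at 6.22, 6.41 and 5.76 in FL and 6.21, 5.76 and 6.04 in BM, did not pass, with overlapping arrays and differences of -0.55 ± 0.27 and 0.13 ± 0.16. Sall4 and Trim71, further genes of early development, had differences of 0.11 ± 0.14 and 0.3 ± 0.12 and did not pass.

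Of 20 imprinted genes, which are expressed from 1 parental allele, 8 were called higher and 1 lower, with a median difference of 0.60. The largest increase of all genes was that of the probe set named for Mir675, the microRNA gene within the first exon of the imprinted noncoding RNA H19. It may read the H19 transcript, so its value is not a measure of the mature microRNA, and no probe set with a single symbol was named for H19. It was at 12.32, 12.34 and 12.32 in FL and 7.97, 7.96 and 7.63 in BM, a difference of 4.47 ± 0.16 (adjusted p = 1.25e-11), with the FL arrays within 0.02 of each other. The mature microRNAs of the gene are shown to identify it. They are RefSeq sequences (build GRCm38.p6) on the minus strand at chr7:142577112-142577133 for the 5p arm and chr7:142577078-142577099 for the 3p arm, 22 bases each, with the seed (bases 2 to 8) in capitals:
mmu-miR-675-5p: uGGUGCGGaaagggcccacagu
mmu-miR-675-3p: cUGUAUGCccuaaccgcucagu
The arms do not share a seed, and neither was measured on its own. Igf2, the fetal growth factor next to H19, was at 11.99, 11.61 and 11.96 in FL and 9.15, 8.75 and 9.04 in BM, a difference of 2.87 ± 0.16 (adjusted p = 4.64e-09). Dlk1, a Notch-family ligand that hepatoblasts also make, was at 10.70, 10.39 and 10.56 in FL and 7.72, 8.04 and 7.46 in BM, a difference of 2.81 ± 0.16 (adjusted p = 5.05e-09). All FL arrays lay above all BM arrays in these 3 genes. Without FL c and BM c the difference was 2.85 for Igf2 and 2.66 for Dlk1.

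The other imprinted genes moved less. Peg3, a zinc finger protein, rose by 1.52 ± 0.17, Plagl1, a zinc finger regulator of other imprinted genes, by 1.51 ± 0.23, Grb10, an adaptor that restrains insulin and growth factor receptors, by 1.44 ± 0.28, the amino acid transporter Slc38a4 by 1.07 ± 0.16 and Ndn, a growth suppressor of the Mage family, by 0.99 ± 0.20. Phlda2, a placental growth restrictor, was the imprinted gene that was lower in FL, at 7.08, 7.21 and 6.90 in FL and 8.88, 9.13 and 7.6 in BM, a difference of -1.47 ± 0.31 (adjusted p = 0.00524). Its BM c value lay more than 1 unit under those of BM a and b and still above all FL arrays. Cdkn1c, the cyclin-dependent kinase inhibitor of adult stem cell quiescence, was at 8.12, 8.29 and 8.15 in FL and 8.30, 8.13 and 8.38 in BM and did not differ beyond its spread (-0.08 ± 0.12). Mest (1.01 ± 0.52), Igf2r, the receptor that clears Igf2 (0.46 ± 0.43), Peg10 (0.63 ± 0.24) and Gnas (-0.20 ± 0.19) did not pass either. Several of these turned on 1 array: Mest was 1.67 without FL b and 0.56 without FL c, and Igf2r was -0.10 without FL c. Without BM c, Gnas was called lower, at -0.48 (adjusted p = 0.0382). Under each single array left out, 8 or 9 of the 20 genes were called higher.

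**Figure D3:**
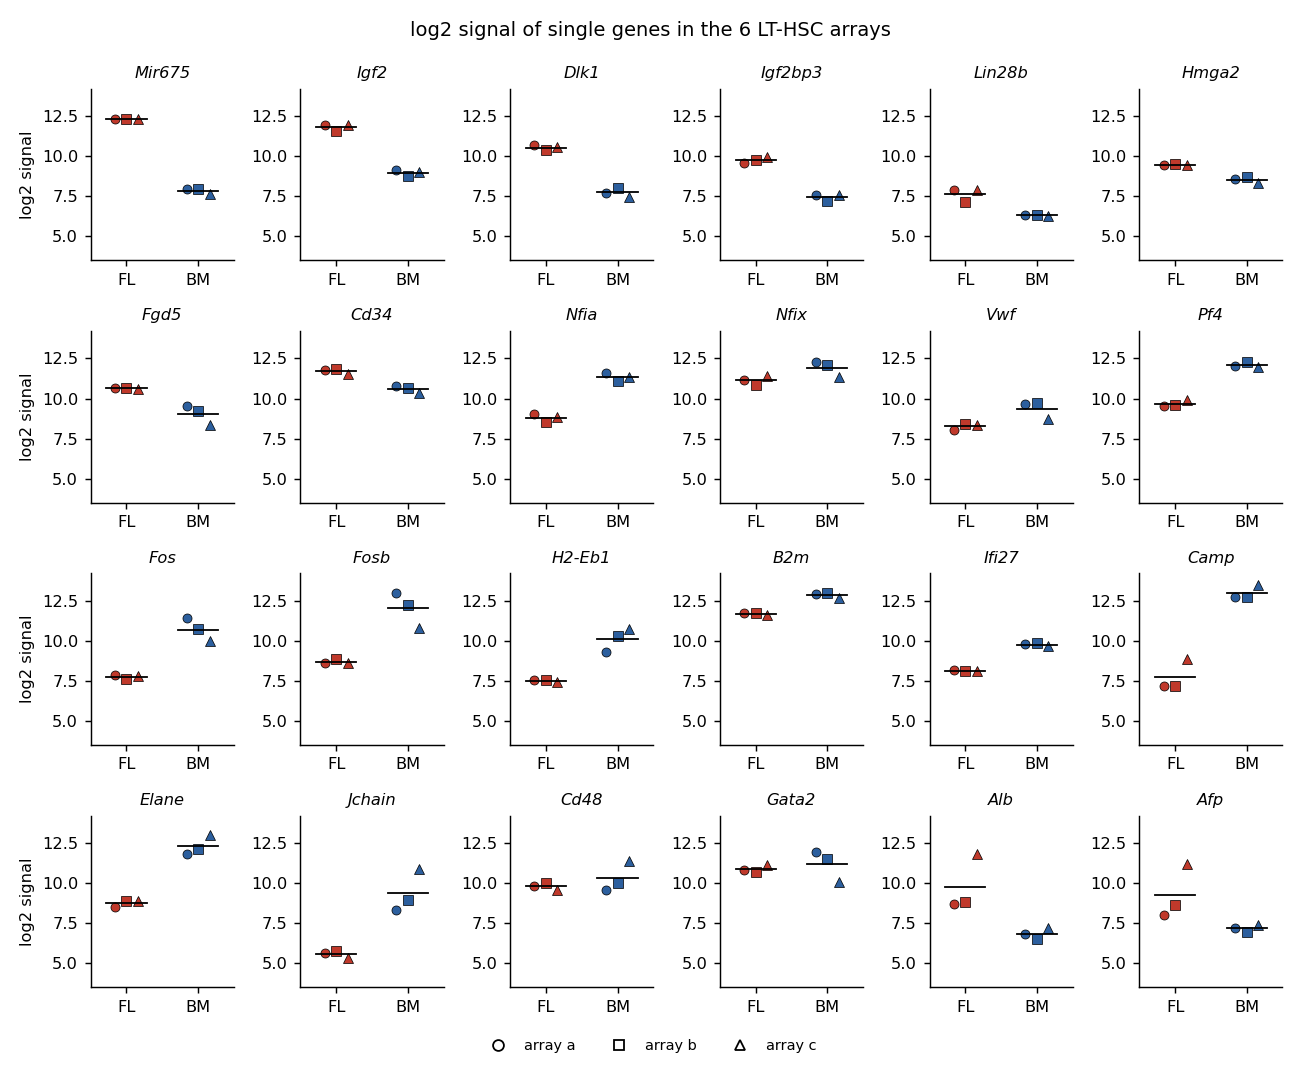
Log2 signal of 24 genes in the 6 LT-HSC arrays, 1 panel per gene on the same vertical scale, with FL in red, BM in blue, symbols for arrays a, b and c, and a bar at the group mean. Fetal genes such as Mir675 and Igf2 separate the groups in all arrays, Camp and Elane do so on the BM side, Gata2 and Cd48 turn on BM c, and Alb and Afp on FL c.

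Among the other genes with the largest increases, Spats2, which binds RNA, was at 9.19, 8.53 and 8.90 in FL and 6.42, 5.78 and 5.78 in BM, a difference of 2.88 ± 0.20 (adjusted p = 3.08e-08). Amt, an enzyme of glycine cleavage, rose by 2.31 ± 0.33, Fscn1, an actin-bundling protein, by 2.44 ± 0.31, Col18a1, a basement membrane collagen, by 2.05 ± 0.22, and Cnn3, an actin-binding calponin, by 2.06 ± 0.24. Nrep, a small neuronal regeneration protein, was at 9.71, 9.46 and 9.51 in FL and 6.94, 6.96 and 7.06 in BM, a difference of 2.58 ± 0.15 (adjusted p = 7.51e-09). Postn, the matrix protein periostin, was at 8.74, 8.70 and 8.58 in FL and 6.21, 6.24 and 7.16 in BM, a difference of 2.14 ± 0.22 (adjusted p = 5.44e-06), and was the single gene of the 22 stromal genes measured that was called higher. In Spats2, Nrep and Postn the closest pair of an FL and a BM array was more than 1 unit apart. Genes were named for the largest differences only where the groups did not overlap, so the lack of overlap restates that choice.

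Transcription factors that specify HSC differed little as a group, and their count depended on BM c. Of 34 factors, 1 was called higher (2.94%) and 4 lower (11.8%), against 3.08% and 4.58% of all genes. The median was 0.02, against 0.04 for all genes. Without BM c the counts were 1 higher and 10 lower, and without BM a they were 6 higher and 3 lower. Nfia, a nuclear factor I protein of myeloid and stem cells, was at 9.03, 8.55 and 8.85 in FL and 11.61, 11.07 and 11.36 in BM, a difference of -2.54 ± 0.23 (adjusted p = 9.98e-07), with no overlap. Nfix, its relative that maintains transplanted stem cells, was at 11.18, 10.85 and 11.44 in FL and 12.31, 12.10 and 11.37 in BM, a difference of -0.77 ± 0.19 (adjusted p = 0.0176), with FL c just above BM c. The Nfix call was lost without FL a (-0.78), FL b (-0.61), BM a (-0.58) or BM b (-0.68), and without BM c the difference was -1.05 (adjusted p = 2.00e-04). Egr1, an immediate early factor linked to stem cell quiescence, was at 7.82, 7.23 and 8.16 in FL and 11.14, 10.46 and 8.90 in BM, a difference of -2.43 ± 0.39 (adjusted p = 4.56e-04). Zbtb16, which restrains stem cell cycling, fell by 0.54 on the log2 scale (adjusted p = 0.0148) and did not pass without FL a (-0.53) or BM b (-0.46). Ikzf2, the Helios factor, was the one called higher, at 9.40, 9.36 and 9.88 in FL and 8.68, 8.51 and 7.42 in BM, a difference of 1.35 ± 0.25 (adjusted p = 0.0021).

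Several core HSC factors were lower in BM c than in BM a and b. Gata2, required for stem cell survival, was at 10.83, 10.70 and 11.14 in FL and 11.95, 11.52 and 10.08 in BM. With all arrays its difference was -0.29 ± 0.3 (adjusted p = 0.7), and without BM c it was -0.84 (adjusted p = 0.0024), which passes. Meis1, the Hox cofactor, at 10.62, 10.71 and 10.98 in FL and 11.24, 11.26 and 9.98 in BM, went from -0.05 ± 0.24 (adjusted p = 0.945) to -0.48 (adjusted p = 0.0483). Runx3, at 9.68, 8.48 and 9.45 in FL and 10.79, 10.67 and 9.15 in BM, went from -1.0 ± 0.36 (adjusted p = 0.113) to -1.53 (adjusted p = 0.00239). Mecom, which sustains long-term stem cells, at 10.78, 10.87 and 11.45 in FL and 10.74, 10.64 and 9.51 in BM, had the opposite sign, with 0.74 ± 0.26 (adjusted p = 0.108) and 0.34 (adjusted p = 0.368). For Hlf, another factor of long-term stem cells, at 11.61, 11.44 and 11.77 in FL and 11.73, 11.38 and 10.48 in BM, the difference of 0.41 ± 0.21 did not pass. In each of these genes BM c was the lowest of the 6 arrays except in Runx3, where FL b was lower. Runx1 (0.21 ± 0.16), Tal1 (0.04 ± 0.14), Lyl1 (0.01 ± 0.16), Erg (0.43 ± 0.19), Spi1 (-0.11 ± 0.16), Myb (0.12 ± 0.11), Bmi1 (0.22 ± 0.16) and Hoxb5 (0.13 ± 0.14) did not pass. None of 14 Hox genes was called with limma, and their median was 0.08. At an unadjusted p under 0.05 there was 1, against 3804 of all 19505 genes. Hoxb9 came closest, at 0.62 ± 0.21 (adjusted p = 0.0818).

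Surface and reporter genes used to mark HSC split by gene. Of 29 measured, 4 were called higher and 5 lower (median -0.06), and without BM c 3 were higher and 9 lower. Fgd5, whose locus drives an HSC reporter, was at 10.63, 10.65 and 10.61 in FL and 9.56, 9.25 and 8.34 in BM, a difference of 1.58 ± 0.21 (adjusted p = 6.13e-05). Ctnnal1, the alpha-catulin reporter gene, rose by 1.29 ± 0.25. Cd34, which adult LT-HSC lose and fetal ones keep, was at 11.78, 11.86 and 11.51 in FL and 10.79, 10.63 and 10.34 in BM, a difference of 1.13 ± 0.13 (adjusted p = 1.13e-05), with no overlap. Emcn, a sialomucin of stem cells and endothelium, was at 9.62, 9.28 and 9.39 in FL and 9.32, 8.32 and 8.05 in BM, a difference of 0.87 ± 0.22 (adjusted p = 0.0177), and did not pass without FL a (0.78), BM b (0.75) or BM c (0.62). Lower in FL were Vwf, the clotting factor of platelet-biased stem cells, at 8.04, 8.42 and 8.36 in FL and 9.67, 9.70 and 8.74 in BM (-1.10 ± 0.20, adjusted p = 0.00158), Itga2b, the platelet integrin Cd41 (-1.27 ± 0.14, adjusted p = 1.07e-05), its partner Itgb3 (-1.22 ± 0.21, adjusted p = 0.00118), the tetraspanin Cd9 (-1.06 ± 0.17, adjusted p = 4.62e-04) and Ly6e (-0.58 ± 0.10, adjusted p = 0.00144). BM c was the lowest BM array for Vwf and still above the FL arrays. Procr, which encodes the stem cell marker Epcr, at 7.08, 7.59 and 6.84 in FL and 7.59, 7.44 and 6.49 in BM, had a difference of 0.00 ± 0.29, and Esam, an adhesion molecule, one of 0.09 ± 0.15. Tek, the angiopoietin receptor, at 9.48, 9.54 and 9.66 in FL and 9.02, 9.03 and 7.13 in BM, missed the threshold at 1.17 ± 0.36 (adjusted p = 0.0557), with BM c lowest, and was 0.54 (adjusted p = 0.153) without BM c.

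Of 26 homing and adhesion genes, 2 were called higher (7.69%) and 4 lower (15.4%), against 3.08% and 4.58% of all genes. The integrin subunits Itga9, at 10.99, 10.66 and 11.02 in FL and 9.90, 9.43 and 9.08 in BM, and Itga4, at 11.24, 11.32 and 11.49 in FL and 10.84, 10.59 and 10.53 in BM, rose by 1.42 ± 0.18 (adjusted p = 3.26e-05) and 0.70 ± 0.16 (adjusted p = 0.00841). Both had all FL arrays above all BM arrays. Alcam, an adhesion molecule of stem cells, was at 8.71, 9.16 and 8.81 in FL and 10.85, 10.65 and 11.16 in BM, a difference of -1.99 ± 0.15 (adjusted p = 8.67e-08), the largest of the list. Cxcr4, the receptor by which stem cells home to Cxcl12 in the marrow, was at 9.70, 9.72 and 9.40 in FL and 10.33, 10.38 and 10.81 in BM, a difference of -0.90 ± 0.15 (adjusted p = 7.38e-04), and all BM arrays were higher. Itgb2 fell by 0.96 (adjusted p = 0.00606) and Itgb7 by 0.61 (adjusted p = 0.0182), and Itgb7 did not pass without FL a (-0.61) or FL c (-0.58). Integrins Itga5 (0.29 ± 0.29), Itga6 (-0.09 ± 0.13) and Itgb1 (0.08 ± 0.18), Cd44 (0.05 ± 0.17) and the small GTPase Rac2 (-0.02 ± 0.12) did not pass.

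Cytokine receptors were mostly not called, with 1 higher and 6 lower of 29 and a median of -0.14. The higher share (3.45%) was near the 3.08% of all genes, and the lower share was 20.7% against 4.58%. Il7r, the receptor of lymphoid progenitors, at 6.15, 6.23 and 6.64 in FL and 7.27, 7.51 and 8.74 in BM, fell by 1.5 (adjusted p = 0.00234). Csf1r, the macrophage growth factor receptor, at 7.30, 6.81 and 7.25 in FL and 8.30, 8.98 and 10.08 in BM, fell by 2.0 (adjusted p = 1.93e-04). In both, BM c was highest and BM a and b were still above FL. Il6ra, the interleukin-6 receptor (-0.90 ± 0.19, adjusted p = 0.00563), and Csf2ra, a chain of the GM-CSF receptor (-0.82 ± 0.16, adjusted p = 0.00369), were also lower in FL. Il27ra (-1.0 ± 0.27, adjusted p = 0.0268) did not pass without FL a (-1.01), FL b (-0.94), FL c (-1.06), BM a (-0.79) or BM b (-0.71), and without BM c, its low BM array, its difference was -1.51 (adjusted p = 3.21e-07). Il10ra (-0.76 ± 0.19, adjusted p = 0.0166) did not pass without FL c (-0.58) or BM c (-0.56). The Bmp receptor Bmpr2 was the one called higher (0.67 ± 0.19, adjusted p = 0.0339), a call lost without FL a (0.70), FL b (0.71), FL c (0.61) or BM c (0.42). The transforming growth factor receptors Tgfbr1 (0.58 ± 0.17, adjusted p = 0.052) and Tgfbr2 (0.26 ± 0.17), the interferon receptor chains Ifnar1 (0.14 ± 0.13) and Ifngr1 (-0.38 ± 0.16), and Igf1r (-0.01 ± 0.22) did not pass.

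Of 53 S phase genes, which replicate DNA, 12 were called higher in FL LT-HSC and none lower. The differences were small, with a median of 0.33, and 50 of the 53 were positive. Leaving out single arrays gave 7 (without BM a) to 15 (without BM b) genes, and 8 without FL a. Exo1, a repair exonuclease, was at 9.48, 9.24 and 9.41 in FL and 8.30, 8.57 and 7.72 in BM, a difference of 1.18 ± 0.23 (adjusted p = 0.00281). Nasp, a histone chaperone, was at 10.48, 10.41 and 10.15 in FL and 9.13, 9.19 and 9.25 in BM, a difference of 1.16 ± 0.19 (adjusted p = 6.64e-04). Pole, the leading-strand polymerase (0.77 ± 0.15, adjusted p = 0.00369), Gins2, a subunit of the replicative helicase (0.76 ± 0.15, adjusted p = 0.00313), and Uhrf1, which carries DNA methylation through replication (0.56 ± 0.12, adjusted p = 0.00501), rose without overlap. Gins1 rose by 0.76 ± 0.21 (adjusted p = 0.035) and did not pass without FL a (0.57), FL b (0.79), BM a (0.70) or BM c (0.68). Of 56 mitotic (G2/M) genes, 50 had a positive difference and the median was 0.29. At an unadjusted p under 0.05 in limma's fit there were 12, near the share of all genes (3804 of 19505), and limma called none of the 56. The closest were 0.55 ± 0.17 (adjusted p = 0.0522) for Tpx2 and 0.73 ± 0.22 (adjusted p = 0.0579) for Kif20a. Leaving out FL b gave 3 called higher, and leaving out BM c gave 2 higher and 1 lower. Without the 4 arrays of narrow spread, FL b and BM c among them, 10 were called higher. Both lists had medians above the 0.04 of all genes.

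Of 24 genes that control entry into the cycle, 4 were called lower. Cdkn2c, the p18 inhibitor of G1 kinases, was at 7.0, 7.01 and 7.27 in FL and 8.39, 8.33 and 8.79 in BM, a difference of -1.41 ± 0.16 (adjusted p = 1.26e-05). Cdkn1a, the p21 inhibitor, was at 8.32, 7.96 and 8.04 in FL and 9.80, 9.03 and 8.66 in BM, a difference of -1.06 ± 0.22 (adjusted p = 0.00556). Rbl2, the pocket protein p130 of resting cells, fell by 0.63 (adjusted p = 6.77e-04), and Cdk6, the G1 kinase that sets how fast stem cells leave rest, by 0.61 (adjusted p = 0.0281), a call lost without FL a (-0.55), FL b (-0.58), BM a (-0.57) or BM b (-0.60). All BM arrays lay above all FL arrays in these 4 genes. Cdkn1b, the p27 inhibitor, at 8.76, 8.57 and 9.07 in FL and 9.43, 9.59 and 9.12 in BM, missed the threshold at -0.58 ± 0.19 (adjusted p = 0.0756).

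Promoters were searched for 9 motifs in 9 of the gene lists, and only some of these results are given. The letters TTTCCCGC or TTTGGCGC, the site bound by E2F factors at replication genes, were searched on both strands of the RefSeq promoters (build GRCm38.p6, 250 bases before to 50 after the start of a gene). They occurred in 2.43% of 15691 genes, in 10 of the 41 S phase genes with a promoter there and in 2 of the 7 of these that were called, so most called members had no match in this window. Hells, a chromatin remodeller, is shown because it had the larger difference of the 2 and was picked after its values were seen: it was at 8.41, 8.58 and 8.38 in FL and 7.67, 8.03 and 7.72 in BM, a difference of 0.65 ± 0.14 (adjusted p = 0.00783). The 250 bases before its start lie on the plus strand at chr19:38930740-38930989, with the match, starting at -62, in capitals:
Hells: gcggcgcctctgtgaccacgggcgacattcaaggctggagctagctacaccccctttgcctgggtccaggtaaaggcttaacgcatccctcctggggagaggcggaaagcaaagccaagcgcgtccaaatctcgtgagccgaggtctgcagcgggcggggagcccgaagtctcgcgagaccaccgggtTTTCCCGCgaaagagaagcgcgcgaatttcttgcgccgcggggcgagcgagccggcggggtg

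Ribosome and metabolism genes gave small differences. Of 35 genes of ribosome biogenesis, which supports growth, all had a positive difference, 7 were called higher and none lower, and the median was 0.30. The count was 1 without FL a, 4 without BM c and 5 to 9 without each of the others. Nolc1, a nucleolar chaperone, was at 10.52, 9.97 and 10.27 in FL and 9.67, 9.73 and 9.49 in BM (0.63 ± 0.14, adjusted p = 0.00792), a call lost without FL a (0.49). Utp4, of the small-subunit processome, was at 11.88, 11.77 and 11.77 in FL and 11.37, 11.35 and 11.02 in BM (0.56 ± 0.12, adjusted p = 0.0079). Of 44 oxidative phosphorylation genes limma called none, with all arrays or without any single one, and their median was 0.14. With all arrays 6 of the 44 had an unadjusted p under 0.05, against 3804 of all 19505 genes. Glycolysis and hypoxia genes split, with 5 higher and 4 lower of 27. The glucose transporter Slc2a1, at 12.34, 12.15 and 12.59 in FL and 11.55, 11.71 and 10.13 in BM, rose by 1.23 ± 0.28 (adjusted p = 0.0086), or 0.73 (adjusted p = 0.00558) without BM c. The hypoxia target Ankrd37, at 10.11, 10.16 and 9.94 in FL and 9.04, 9.05 and 8.94 in BM, rose by 1.06 ± 0.11 (adjusted p = 7.77e-06). Egln3, an oxygen sensor, rose by 1.04 ± 0.20 (adjusted p = 0.0021). The glycolytic enzymes Aldoa (0.49 ± 0.12, adjusted p = 0.0168) and Tpi1 (0.44 ± 0.11, adjusted p = 0.0225) were the other two called higher. Aldoa did not pass without FL a (0.40), BM a (0.43) or BM b (0.45), nor Tpi1 without FL a (0.43), FL b (0.42), BM a (0.45) or BM b (0.39), and the higher count was 3 without FL a or BM a. Lower were the glycolytic enzymes Pfkp (-0.68) and Aldoc (-0.59), the regulator Pfkfb3 (-0.62) and the hypoxia factor Epas1 (-0.42), of which 1 to 3 were called under each single array left out. Pfkp did not pass without FL a (-0.65) or BM a (-0.63), Pfkfb3 without FL b (-0.42), Aldoc without any array but BM c and Epas1 without any but BM a. Of 25 epigenetic regulators 6 were higher, among them the DNA methyltransferase Dnmt3b (1.19 ± 0.24, adjusted p = 0.00407) and the Polycomb protein Cbx2 (0.55 ± 0.13, adjusted p = 0.0109), and Ezh1, the Polycomb methyltransferase of resting cells, was lower (-0.58 ± 0.16, adjusted p = 0.0313), but not without FL b (-0.39), BM a (-0.57) or BM b (-0.56). Of 25 lipid synthesis genes, fatty acid synthase, Fasn, was higher (0.69). The cholesterol synthesis enzyme Sc5d (-0.70) and Insig1, which restrains that synthesis (-0.64), were lower. These shares were near those of all genes (3.08% and 4.58%). Fasn did not pass without any array but BM a and was 0.42 without BM c. Sc5d did not pass without BM a (-0.61) and Insig1 without FL b (-0.52). Of 22 unfolded protein response genes 3 were lower (13.6%, against 4.58% of all genes), down to 1 without FL c (4.55%). The 3 were the chaperone gene Dnajb9 (-0.56), Edem1 (-0.52), which clears misfolded glycoproteins, and the transcription factor Xbp1 (-0.49). Dnajb9 did not pass without FL a (-0.48), FL c (-0.54) or BM a (-0.51), Edem1 without FL b (-0.47) or BM c (-0.41) and Xbp1 without FL c (-0.46) or BM c (-0.41).

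Immediate early genes, transcription factors and phosphatases induced within minutes of a stimulus, were lower in FL. Of 33 measured, 16 were called lower and none higher, with a median of -0.86, and single left-out arrays gave 15 to 19 (19 without BM c). Fosb was at 8.61, 8.85 and 8.63 in FL and 13.01, 12.23 and 10.82 in BM, a difference of -3.33 ± 0.40 (adjusted p = 2.48e-05). Fos, its partner in the AP-1 complex, was at 7.84, 7.62 and 7.81 in FL and 11.40, 10.70 and 9.96 in BM, a difference of -2.93 ± 0.25 (adjusted p = 5.68e-07). Junb, another AP-1 subunit, was at 9.40, 8.36 and 9.75 in FL and 11.52, 11.19 and 10.45 in BM, a difference of -1.88 ± 0.28 (adjusted p = 2.65e-04). The FL arrays lay close together for Fos and Fosb, whereas the BM arrays were spread, with BM a highest and BM c lowest, and did not overlap with FL. Nr4a2, an orphan nuclear receptor, fell by 2.11 (adjusted p = 9.30e-04), and Nr4a1, its relative that restrains stem cell division, by 1.52 (adjusted p = 0.0151), a call lost without FL a (-1.5) or FL c (-1.47). Without BM a, its highest array, the difference was -0.83 and still passed. Rgs1, an inhibitor of chemokine receptor signalling, was outside the list and among the 15 largest decreases, at 5.39, 6.01 and 5.38 in FL and 10.91, 10.51 and 9.24 in BM (-4.63 ± 0.3, adjusted p = 1.77e-08).

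Of 20 NF-kB target genes 7 were called lower and none higher, with each single array left out too. Il1b, the inflammatory cytokine, was at 6.21, 6.67 and 6.49 in FL and 9.22, 8.88 and 11.22 in BM, a difference of -3.32 ± 0.40 (adjusted p = 2.34e-05). The chemokine Ccl3 was at 6.43, 6.35 and 6.47 in FL and 9.23, 8.74 and 9.32 in BM, a difference of -2.68 ± 0.17 (adjusted p = 1.31e-08). Ptgs2, the inducible cyclooxygenase (-1.79 ± 0.26, adjusted p = 2.17e-04), and the regulators Nfkbid (-1.69 ± 0.32, adjusted p = 0.00248) and Nfkbiz (-1.66 ± 0.27, adjusted p = 5.11e-04) also fell. BM c was the highest array for Il1b and the lowest BM array for Nfkbid and Nfkbiz. The letters of an NF-kB site occurred in the promoters of 7 of 17 of these genes (41.2%), 2 of the 6 called ones, and of 12.3% of all genes. They were about as frequent in the immediate early genes, in 11 of 29 (37.9%).

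A CArG box, the site of serum response factor, occurred in 1.7% of all genes with a promoter, in 3 of 29 immediate early genes and in 1 of the 14 of these that were called. That gene, Zfp36, encodes a protein that degrades inflammatory mRNAs and was at 7.64, 7.91 and 7.89 in FL and 9.82, 9.18 and 9.25 in BM, a difference of -1.6 ± 0.19 (adjusted p = 1.60e-05). It is shown for this match and was picked after its values were seen. Another motif searched, TGACGTCA, occurred in 4 of the 29 genes and in 2 of the 14 called, against 2.63% of all genes. The stretch lies on the minus strand at chr7:28379229-28379478 of GRCm38.p6, printed from 250 bases before the start, with the match, starting at -58, in capitals:
Zfp36: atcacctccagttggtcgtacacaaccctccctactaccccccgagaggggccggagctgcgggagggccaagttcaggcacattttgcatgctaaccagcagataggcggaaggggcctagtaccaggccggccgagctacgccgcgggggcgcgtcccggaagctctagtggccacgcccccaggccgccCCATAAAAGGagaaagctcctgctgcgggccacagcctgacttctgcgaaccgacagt

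Interferon response and antigen presentation genes were lower in FL. Of 39 interferon-stimulated genes, 17 were called lower and none higher, with a median of -0.56, and the count ran from 11 without BM a to 22 without BM c. Ifi27 was at 8.17, 8.10 and 8.10 in FL and 9.79, 9.84 and 9.65 in BM, a difference of -1.63 ± 0.12 (adjusted p = 4.84e-08). Sp100, a nuclear body protein, was at 9.47, 9.71 and 9.26 in FL and 10.86, 10.90 and 11.49 in BM, a difference of -1.6 ± 0.16 (adjusted p = 4.44e-06). Oas3, which senses double-stranded RNA, was at 6.11, 5.91 and 6.30 in FL and 7.41, 7.52 and 7.53 in BM, a difference of -1.38 ± 0.13 (adjusted p = 1.31e-06). Iigp1, a GTPase of cell-autonomous immunity, fell by 1.46 (adjusted p = 3.09e-04). In these 4 genes the groups did not overlap, and the arrays within a group lay closer for Ifi27 than for Iigp1. Gbp2, a guanylate-binding protein, was at 6.67, 6.43 and 6.88 in FL and 8.05, 8.035 and 7.0 in BM, a difference of -1.04 ± 0.25 (adjusted p = 0.0125), with BM c close to FL, and was not called without FL b (-0.92), BM a (-0.86) or BM b (-0.87). Without BM c its difference was -1.38 (adjusted p = 1.61e-04).

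The letters GAAA, any 2 bases and GAAA again, as in interferon-stimulated response elements, occurred on either strand in the promoters of 3.94% of all genes (618 of 15691), of 19 of 30 interferon-stimulated genes, and of 6 of the 12 of those called. The members of the list were picked for responding to interferon, so this share describes the list. The promoters of Oas3 and Gbp2 are shown as called genes that hold the match, picked after their values were seen. The stretches are the 250 bases before each start in GRCm38.p6, for Oas3 on the minus strand at chr5:120777660-120777909 with the match starting at -75, and for Gbp2 on the plus strand at chr3:142620413-142620662 with the match at -59 reading on the opposite strand; matches are in capitals:
Oas3: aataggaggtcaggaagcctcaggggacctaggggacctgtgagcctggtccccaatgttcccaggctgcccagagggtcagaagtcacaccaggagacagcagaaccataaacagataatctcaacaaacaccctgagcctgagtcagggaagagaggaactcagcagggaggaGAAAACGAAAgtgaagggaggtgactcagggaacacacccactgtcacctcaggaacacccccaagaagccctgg
Gbp2: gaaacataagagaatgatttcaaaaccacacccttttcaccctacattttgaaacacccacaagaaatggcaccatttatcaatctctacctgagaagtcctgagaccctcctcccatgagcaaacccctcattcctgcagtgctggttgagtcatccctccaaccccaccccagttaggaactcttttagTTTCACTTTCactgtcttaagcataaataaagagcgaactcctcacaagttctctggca

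MHC class I genes, which present peptides on all nucleated cells, gave 9 lower and none higher of 17 (median -0.90), and 9 or 10 under each single array left out. B2m, the light chain of all class I molecules, was at 11.70, 11.71 and 11.58 in FL and 12.93, 12.99 and 12.67 in BM, a difference of -1.20 ± 0.12 (adjusted p = 3.01e-06). H2-K1, a heavy chain, was at 11.22, 11.54 and 11.05 in FL and 12.54, 12.62 and 12.45 in BM, a difference of -1.27 ± 0.13 (adjusted p = 2.91e-06). H2-D1 (-1.41 ± 0.14, adjusted p = 2.37e-06), H2-T23 (-1.22 ± 0.11, adjusted p = 1.31e-06) and H2-M3 (-1.23 ± 0.17, adjusted p = 1.19e-04) fell alike. H2 genes resemble each other in sequence, so cross-hybridization between them was possible and was not tested. Of 11 MHC class II genes, 9 were lower and none higher, with a median of -1.87 and the same count without each array. H2-Eb1 was at 7.52, 7.57 and 7.43 in FL and 9.28, 10.27 and 10.71 in BM, a difference of -2.58 ± 0.25 (adjusted p = 1.95e-06). H2-DMb1, which helps load peptides, was at 9.27, 8.88 and 9.04 in FL and 11.09, 11.24 and 11.39 in BM, a difference of -2.18 ± 0.15 (adjusted p = 3.08e-08). Ctss, the protease that trims the class II chaperone, was at 6.93, 6.85 and 6.87 in FL and 9.42, 9.52 and 10.84 in BM, a difference of -3.04 ± 0.26 (adjusted p = 4.47e-07). The class II transactivator Ciita did not pass (-0.32 ± 0.16, adjusted p = 0.284). FL arrays lay close together and the BM arrays above them, with BM c the highest for H2-Eb1 and Ctss. Of 17 Toll-like receptor genes 8 were lower (7 or 8 without each array), among them the RNA sensors Tlr7 (-2.28 ± 0.35, adjusted p = 3.14e-04) and Tlr8 (-2.09 ± 0.35, adjusted p = 7.70e-04), again with BM c highest.

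Genes of platelets and megakaryocytes, a lineage toward which part of the adult LT-HSC is biased, gave 12 lower and none higher of 24, with a median of -0.55. Pf4, the platelet chemokine, was at 9.52, 9.58 and 9.92 in FL and 12.03, 12.25 and 11.96 in BM, a difference of -2.41 ± 0.16 (adjusted p = 1.85e-08). Cavin2, a caveolar protein of platelets, was at 6.67, 7.36 and 7.41 in FL and 9.58, 9.81 and 8.49 in BM, a difference of -2.15 ± 0.26 (adjusted p = 2.98e-05). The groups were apart in both, and BM c was not the highest array in either. Thbs1, thrombospondin, fell by 1.02 (adjusted p = 0.00416). Ppbp, a platelet chemokine, was at 7.02, 6.28 and 7.08 in FL and 8.2, 7.74 and 11.0 in BM, a difference of -2.19 ± 0.56 (adjusted p = 0.021) that rested on a high BM c, with -1.18 (adjusted p = 0.0297) without it and no call without FL a (-2.30) or FL b (-1.93). Selp, a platelet adhesion molecule, had a difference of 0.00 ± 0.15 and Fli1, a megakaryocyte transcription factor, one of -0.04 ± 0.13.

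The largest difference of all genes was that of a neutrophil granule gene, S100a8. All 21 neutrophil granule genes were called lower in FL (19 to 21 under each single array left out), with a median of -3.50, and 16 of 19 granulocyte-monocyte genes (14 to 17), with a median of -2.0. The mean log2 signal of the granule list ran from 6.97 to 7.44 over the FL arrays and from 10.39 to 11.91 over the BM arrays. S100a8 was at 5.37, 5.50 and 7.7 in FL and 12.29, 12.22 and 13.18 in BM, a difference of -6.37 ± 0.53 (adjusted p = 3.26e-07). Lcn2, a siderophore-binding granule protein, was at 6.17, 5.63 and 8.35 in FL and 12.47, 12.63 and 13.26 in BM, a difference of -6.07 ± 0.47 (adjusted p = 1.34e-07). Ngp, another granule protein, was at 7.08, 6.71 and 8.50 in FL and 12.87, 13.06 and 13.68 in BM, a difference of -5.77 ± 0.37 (adjusted p = 1.64e-08). FL c was the highest FL array in these genes and BM c the highest BM array. Camp (-5.24 ± 0.34, adjusted p = 1.77e-08) and Ltf (-4.01 ± 0.42, adjusted p = 5.32e-06), both antimicrobial granule proteins, and the matrix protease Mmp8 (-5.92 ± 0.38, adjusted p = 1.77e-08) fell as well. So did S100a9, the partner of S100a8 (-5.32 ± 0.42), the chitinase-like protein gene Chil3 (-5.57 ± 0.51), the resistin-like gene Retnlg (-4.91 ± 0.40), Wfdc21 (-4.09 ± 0.27) and Mpeg1, a pore-forming protein of phagocytes (-4.25 ± 0.36), which are among the 15 largest decreases.

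Primary granule and monocyte genes gave both called and uncalled differences. Elane, neutrophil elastase of progenitors, was at 8.47, 8.87 and 8.90 in FL and 11.79, 12.13 and 12.96 in BM, a difference of -3.55 ± 0.32 (adjusted p = 9.05e-07). Ctsg, cathepsin G, was at 6.46, 6.61 and 6.46 in FL and 9.13, 9.39 and 11.41 in BM, a difference of -3.47 ± 0.41 (adjusted p = 1.98e-05). Ly6c2, the Ly6C antigen of monocytes, was at 5.96, 6.82 and 6.04 in FL and 10.96, 11.12 and 12.41 in BM, a difference of -5.22 ± 0.34 (adjusted p = 1.77e-08). Ly6c1 (-4.96 ± 0.32, adjusted p = 1.64e-08) is near-identical to it in sequence, and the probe sets may share signal. Mpo, myeloperoxidase, was at 12.19, 12.12 and 12.09 in FL and 12.04, 12.22 and 13.15 in BM and did not pass (-0.34 ± 0.20, adjusted p = 0.406), and neither did Irf8, a monocyte and dendritic cell factor (-0.39 ± 0.16, adjusted p = 0.164), or Hk3 (-0.32 ± 0.26, adjusted p = 0.572). In Mpo, Irf8 and Hk3 the arrays other than BM c lay within 0.5 of each other, and without BM c the Mpo difference was 0.01. All 21 granule genes and all 19 granulocyte-monocyte genes were higher in BM c than in BM a and b, by a median of 1.57 and 1.44, and without BM c the list medians were -3.19 and -1.56, with 20 and 16 genes called. BM c was singled out for its neutrophil genes, so for the granule list these values restate that choice. The part of myeloid cells in the BM sorts was not tested.

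**Figure D4:**
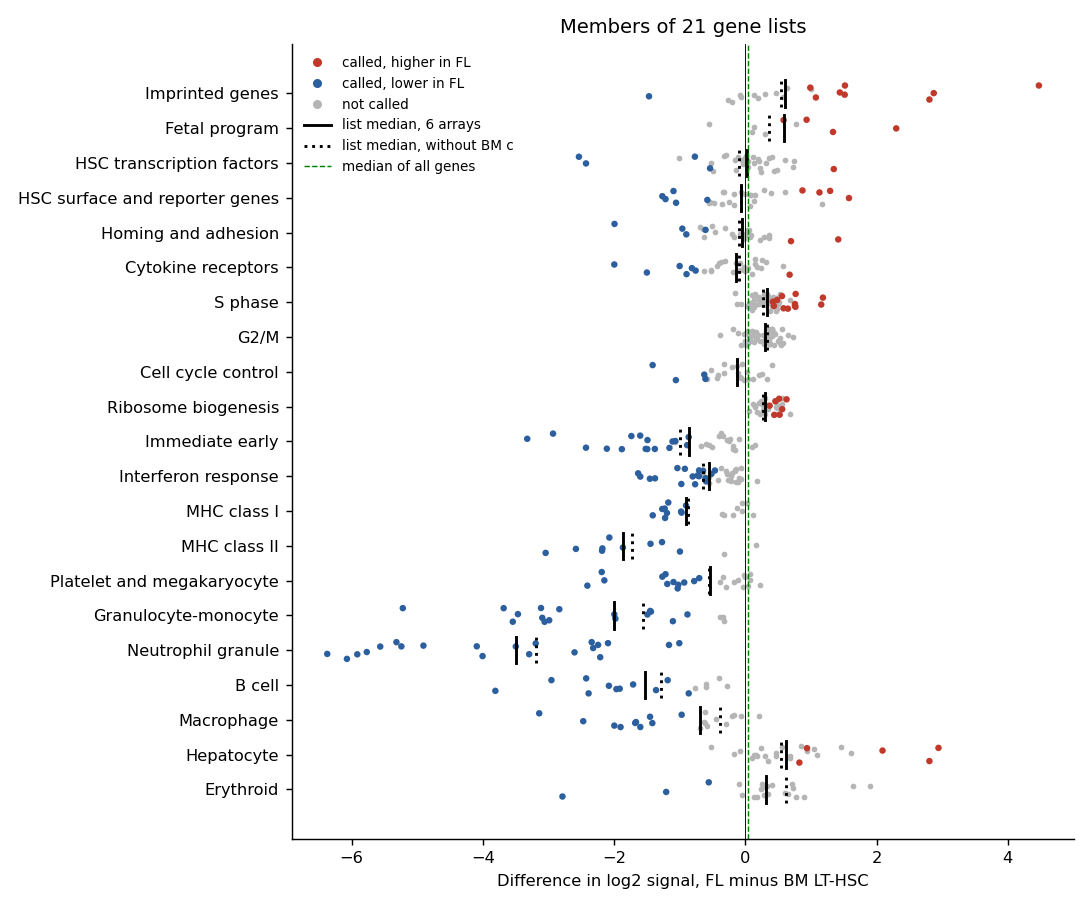
Difference FL minus BM LT-HSC (log2) of each member of 21 gene lists, 1 point per gene, red for called higher, blue for called lower and grey for not called. Vertical bars are list medians with 6 arrays (solid) and without BM c (dotted), and the green line is the median of all genes; the neutrophil, granulocyte-monocyte and MHC class II medians lie at -3.50, -2.0 and -1.87, and those of the imprinted and fetal lists at 0.60 and 0.58.

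Markers of other mature cells were also lower in FL LT-HSC. Of 16 B cell genes 11 were lower (10 to 12 without each array) with a median of -1.54. Jchain, which joins secreted antibodies, was at 5.64, 5.72 and 5.32 in FL and 8.32, 8.90 and 10.89 in BM, a difference of -3.81 ± 0.44 (adjusted p = 1.56e-05). Ebf1, the B lineage factor, was at 8.0, 7.51 and 7.98 in FL and 10.04, 10.22 and 10.40 in BM, a difference of -2.39 ± 0.21 (adjusted p = 6.21e-07). Cd79a, a chain of the B cell receptor, fell by 2.08 (adjusted p = 5.01e-04), whereas Cd79b (-0.40 ± 0.17, adjusted p = 0.193) and Ms4a1, which encodes Cd20 (-0.29 ± 0.14, adjusted p = 0.288), did not pass. Of 21 macrophage genes 10 were lower (median -0.69), 14 without BM b, led by the complement gene C1qa, at 6.02, 6.35 and 6.25 in FL and 8.81, 9.06 and 10.17 in BM (-3.14 ± 0.26, adjusted p = 2.79e-07). Of 17 T and NK cell genes 6 were lower, but 1 without FL a, and Nkg7, a cytotoxic granule protein, led them (-2.15 ± 0.22, adjusted p = 4.52e-06). Among mast cell, basophil and eosinophil genes 8 of 18 were lower, 4 without FL a and 5 without BM c, among them the basophil protease gene Mcpt8 (-3.61 ± 0.40, adjusted p = 1.18e-05) and Prg2, the eosinophil major basic protein (-3.69 ± 0.63, adjusted p = 8.80e-04), and Cd200r3, a receptor of basophils and mast cells, was the one called higher (1.28 ± 0.24, adjusted p = 0.00187). Of the 22 stromal genes 8 were lower, with Sparc at 8.4, 8.30 and 8.72 in FL and 11.24, 10.75 and 12.16 in BM (-2.91 ± 0.45, adjusted p = 3.34e-04). The mean log2 signal ran from 7.13 to 7.23 in FL and from 8.4 to 9.43 in BM for the B cell list, and from 7.03 to 7.16 and 7.86 to 8.74 for the macrophage list. In BM c 15 of the 16 B cell genes and 19 of the 21 macrophage genes were above BM a and b, by medians of 0.89 and 0.75. The part of these cells in the result was not tested.

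Lymphoid priming genes split, with 3 higher and 4 lower of 18. Tespa1, a T cell signalling protein, was at 9.72, 9.58 and 9.27 in FL and 7.96, 7.76 and 8.48 in BM, a difference of 1.46 ± 0.18 (adjusted p = 2.78e-05). Satb1, a chromatin organizer that favours lymphoid fate, was at 9.41, 8.86 and 9.16 in FL and 7.57, 7.95 and 8.01 in BM, a difference of 1.30 ± 0.16 (adjusted p = 2.68e-05). Both were higher in every FL array. Dntt, the DNA polymerase that adds bases at antigen receptor joints, was at 5.52, 5.10 and 4.95 in FL and 5.91, 6.09 and 7.83 in BM, a difference of -1.42 ± 0.36 (adjusted p = 0.0195), and did not pass without FL b (-1.37) or FL c (-1.30). Without BM c, the highest array, it was -0.81 (adjusted p = 0.0418). Cnn3 and Il7r, given above, were also called, in opposite directions. Blnk, an adaptor of the B cell receptor, fell by 1.71 (adjusted p = 5.92e-04), and Dach1 by 0.79 (adjusted p = 0.0356), a call lost without FL a (-0.74), FL b (-0.65), BM a (-0.63) or BM b (-0.61). Of 8 Gimap genes, GTPases of lymphocytes, Gimap9 was called higher (0.77 ± 0.20, adjusted p = 0.0243), not without FL a (0.76), FL b (0.62) or BM c (0.55). Of 20 endothelial genes 4 were higher and 1 lower: Ramp2, a receptor partner for adrenomedullin, at 9.02, 8.85 and 8.85 in FL and 7.32, 7.56 and 7.11 in BM (1.58 ± 0.16, adjusted p = 5.37e-06), the phosphatase Ptprb (1.45 ± 0.25, adjusted p = 8.61e-04) and the cadherin Cdh5 (1.10 ± 0.21, adjusted p = 0.0022), beside Emcn and Vwf given above, while Pecam1 did not pass (0.36 ± 0.13, adjusted p = 0.113).

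Most hepatocyte genes were higher in FL c than in the other FL arrays. FL c was singled out for its high Alb, so its excess in Alb restates that choice. Its excess in other genes of hepatocytes may follow from the same choice. Of 26 hepatocyte and hepatoblast genes 5 were called higher with all arrays, with a median of 0.62, and 2 without FL c, with a median of 0.28. The count also fell to 3 without BM a or BM b, and it was 6 or 7 without FL a, FL b or BM c. The medians without these 5 arrays were 0.55 to 0.80. The mean log2 signal of the list was 7.49, 7.63 and 8.61 in FL a, b and c and 7.08 to 7.20 in the BM arrays, and 20 of the 26 genes were higher in FL c than in FL a and b. Alb had a difference of 2.94 ± 0.69 (adjusted p = 0.0115) with all arrays and 1.93 (adjusted p = 0.0569) without FL c. Afp, the fetal albumin, was at 7.97, 8.62 and 11.16 in FL and 7.17, 6.95 and 7.37 in BM, a difference of 2.09 ± 0.62 (adjusted p = 0.0465), and it did not pass without FL c (1.13), BM a (2.09), BM b (1.98) or BM c (2.20). FL a and b still lay above the BM arrays for both genes, which was a condition for naming them among the largest differences. Apoc1, an apolipoprotein, was at 6.69, 7.30 and 7.44 in FL and 6.22, 5.96 and 6.44 in BM (0.94 ± 0.20, adjusted p = 0.0064) and Dlk1 is given above; these 2 stayed called without FL c. Vtn, vitronectin, rose by 0.82 ± 0.23 (adjusted p = 0.033) and did not pass without FL c (0.47), BM a (0.84) or BM b (0.76). The part of hepatocyte RNA in FL c was not tested.

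Erythroid genes varied within both groups. Of 22 measured, limma called none higher and 3 lower (1 or 2 without each single array). At an unadjusted p under 0.05 there were 3 higher and 3 lower, against 3804 of all 19505 genes in either direction. The median was 0.31 with all arrays, -0.07 without FL c and 0.62 without BM c. FL c was above FL a and b in 17 of the 22, by a median of 1.27, and BM c above BM a and b in 18, by 0.74. The embryonic globin gene Hbb-y was at 7.20, 6.92 and 10.32 in FL and 6.57, 5.93 and 6.265 in BM and did not pass (1.89 ± 0.76, adjusted p = 0.158). Leaving out FL b, the FL array with the lowest mean of the list (7.94, against 9.20 and 10.01), gave 4 genes called higher, and leaving out the 4 arrays of narrow spread, FL b and BM c among them, gave 8, with a median of 1.20. Car1, a carbonic anhydrase of erythroid and myeloid progenitors, was at 9.11, 6.89 and 8.47 in FL and 11.06, 10.15 and 11.62 in BM, a difference of -2.79 ± 0.47 (adjusted p = 8.02e-04), with all BM arrays above all FL arrays. The water channel Aqp1 (-1.21 ± 0.35, adjusted p = 0.0408) and Car2 (-0.56 ± 0.14, adjusted p = 0.0208), another carbonic anhydrase, were also lower, but Aqp1 did not pass without FL a (-1.20), FL b (-1.07), FL c (-1.34), BM a (-1.27), BM b (-1.22) or BM c (-1.14). Car2 did not pass without FL a (-0.54), FL b (-0.49), BM a (-0.52) or BM b (-0.49).

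FL minus BM gave 3638 called genes in ST-HSC (18.7%) and 1067 in MPP (5.47%). Of the 1495 LT-HSC genes, 887 were called in the same direction in ST-HSC, which is 59.3% of the LT-HSC and 24.4% of the ST-HSC genes, and 12 in the opposite one. In MPP 549 were called in the same direction (36.7% of the LT-HSC and 51.5% of the MPP genes) and 7 in the opposite one. The 3 contrasts share no array, but they share the estimate of spread per gene and the same sources, so their calls are not independent. Mir675 was higher in all 3 populations, by 4.47 in LT-HSC, 4.84 in ST-HSC and 3.81 in MPP, and Fos lower, with -2.93, -3.63 and -3.24. Of the 53 S phase genes 36 were called higher in ST-HSC and 3 in MPP, and of the 56 mitotic genes 45 and none.

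Testing LT-HSC against the mean of ST-HSC and MPP called 123 genes (0.631%), 27 with a more positive difference in LT-HSC (0.138%) and 96 with a more negative one (0.492%). The 27 and 96 genes describe how the FL minus BM difference changed with the population, not a level. Cdh17, a cadherin, was at 6.42, 5.73 and 5.61 in FL and 5.05, 5.12 and 5.54 in BM in LT-HSC, with a difference of 0.69 there and 3.87 and 4.28 in ST-HSC and MPP, which gives -3.39 ± 0.24 (adjusted p = 9.02e-07). The LT-HSC difference alone did not pass without FL a (0.44), BM a (0.59) or BM b (0.63). Ccr9, a chemokine receptor of lymphoid progenitors, had -0.65 in LT-HSC against 2.91 and 2.24, which gives -3.22 ± 0.45 (adjusted p = 0.00176). Pirb, an inhibitory receptor for MHC class I, was at 7.90, 7.26 and 7.32 in FL and 9.88, 9.73 and 10.98 in BM, a difference of -2.70 against 0.49 and 0.14, giving -3.02 ± 0.32 (adjusted p = 1.61e-04). The phospholipase-family protein Pld4 (-2.83 ± 0.32, adjusted p = 3.02e-04), the Fc receptor Fcgr3 (-2.67 ± 0.44, adjusted p = 0.00717), the NADPH oxidase subunit Cybb (-2.94 ± 0.44, adjusted p = 0.00289) and Cavin2 (-2.69 ± 0.32, adjusted p = 4.00e-04) were more negative in LT-HSC. In Pirb, Pld4, Fcgr3 and Cybb the highest BM LT-HSC array was BM c, and all 4 stayed called without it.

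Genes with a more positive difference in LT-HSC were fewer. Dntt had differences of -1.42 in LT-HSC, -3.84 in ST-HSC and -6.42 in MPP, which gives 3.71 ± 0.44 (adjusted p = 3.98e-04). Lmo7 (1.97 ± 0.32, adjusted p = 0.00544), the adaptor Clnk (1.88 ± 0.25, adjusted p = 0.00101) and the chemokine Ccl4 (1.37 ± 0.22, adjusted p = 0.00544) had differences in LT-HSC that did not pass and lower ones in both other populations. Tespa1, which was higher in FL LT-HSC by 1.46, had differences of 0.20 in ST-HSC and 0.05 in MPP, which gives 1.33 ± 0.22 (adjusted p = 0.00616). Of the lists, 5 of 19 granulocyte-monocyte genes (Elane, Csf1r, Fcgr3, Ccr2 and Ly86), 5 of 24 platelet genes (Pf4, Vwf, Cavin2, Mmrn1 and Pros1) and 3 of 17 Toll-like receptor genes (Tlr7, Tlr9 and Cd180) were more negative in LT-HSC. So were 3 of 21 macrophage genes and 2 of 11 MHC class II genes, against 0.492% of all genes. Lymphoid priming genes gave 4 more positive and 2 more negative of 18. Thbs1 was the platelet gene that was more positive, at 1.27, with a smaller fall in LT-HSC (-1.02) than in ST-HSC (-2.92) and MPP (-1.66).

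**Figure D5:**
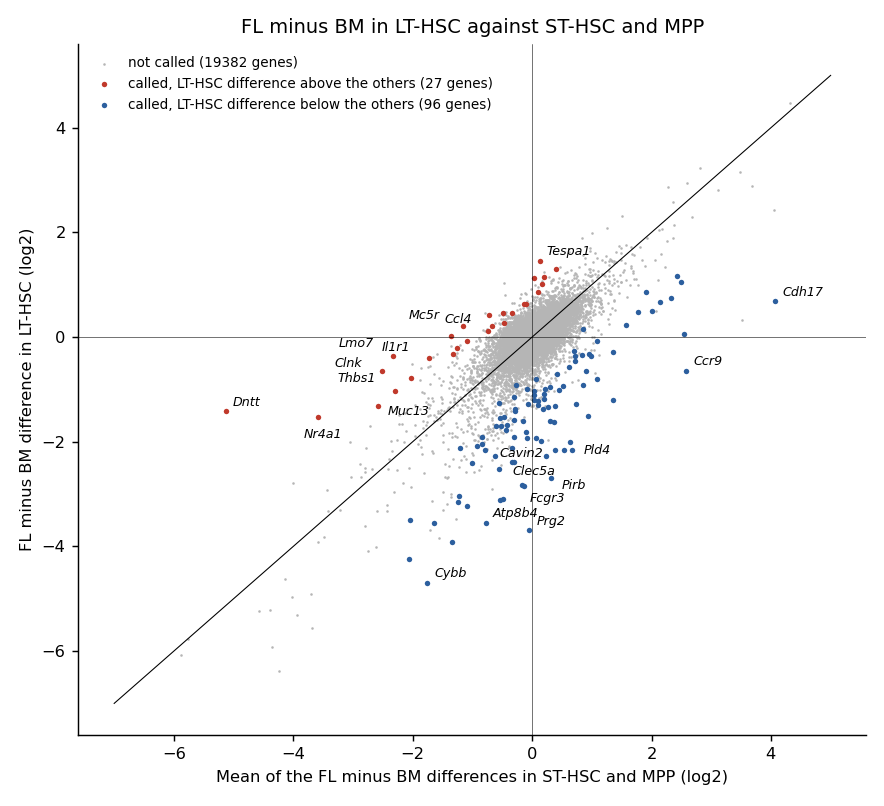
FL minus BM difference in LT-HSC (vertical axis, log2) against the mean of the FL minus BM differences in ST-HSC and MPP (horizontal axis, log2), 1 point per gene, with the line of equality. The 27 genes called above (red) and 96 called below (blue) the other populations are coloured and the 20 named ones labelled; Dntt lies farthest above and Prg2 farthest below, at 3.71 and -3.64 between the populations.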

How the data were processed

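The authors deposited 1 log2 signal for each probe set on each array. The submitters' processing notes name R 3.5.01 and oligo. How the background was corrected and the values normalized, summarized and filtered was not given in the sources used here. RNA came from an RNeasy Micro kit, and 2 ng went into the GeneChip Pico kit with 10 PCR cycles, per the labels' protocols. Of 22203 probe sets, 19572 had 1 gene symbol, and all of these matched RefSeq (GRCm38.p6) by gene ID. The other 2631 were left out. Genes with several probe sets took the one with the highest mean, which left 19505 genes.

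limma 3.58.1 (R 4.3.3) fitted 6 group means to the 18 arrays by lmFit and eBayes, with 12 residual degrees of freedom. A call needed an adjusted p (Benjamini-Hochberg, all genes) under 0.05. Errors are standard errors of this fit on the log2 scale. Precision is limited by having 3 arrays a group. The scripts were tested on simulated data.

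The members and the 38 lists (832 of 902 listed genes measured) were chosen with earlier results of these data known, and no list was tested as a set. Genes were named from the 15 largest called differences each way without overlap, members of the fetal, imprinted, HSC, homing and receptor lists, up to 5 members of the other lists and those behind a count of 5 or fewer, the check genes, the 10 largest each way against the other populations, and genes that turn on FL c or BM c. Alternatives left out arrays (list counts without FL a, FL b, BM a or BM b were added after seeing the data), changed the scaling, filter, probe set choice and weights, added a replicate block, and fitted the 6 arrays alone. The replicate letters did not pair the arrays: deviations from the group means correlated at 0.217 for a, -0.376 for b and -0.272 for c.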

Additional observations from a re-analysis of the deposited data

Results flagged for a closer look

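The results named here are the 20 genes with the largest change of the FL minus BM difference between LT-HSC and the mean of ST-HSC and MPP, each past the threshold in limma's fit for that difference of differences. After each value stands how many of the 18 fits that leave out 1 array kept the call. More positive in LT-HSC were Dntt (3.71, 18 of 18), Nr4a1 (2.06, 2 of 18), Lmo7 (1.97, 18 of 18), Clnk (1.88, 18 of 18), Ccl4 (1.37, 18 of 18), Mc5r (1.36, 3 of 18), Tespa1 (1.33, 18 of 18), Il1r1 (1.33, 5 of 18), Thbs1 (1.27, 9 of 18) and Muc13 (1.26, 16 of 18). More negative in LT-HSC were Fcgr3 (-2.67, 18 of 18), Cavin2 (-2.69, 18 of 18), Clec5a (-2.70, 16 of 18), Atp8b4 (-2.77, 8 of 18), Pld4 (-2.83, 18 of 18), Cybb (-2.94, 18 of 18), Pirb (-3.02, 18 of 18), Ccr9 (-3.22, 18 of 18), Cdh17 (-3.39, 18 of 18) and Prg2 (-3.64, 6 of 18). Nr4a1, Mc5r, Il1r1 and Prg2 kept the call in fewer than 7 of the 18 fits. Prg2, with adjusted p = 0.0377 over all arrays, did not pass without BM LT-HSC c (adjusted p = 0.0532). Without the 4 FL arrays described with sgEzh2, Cdh17, Pirb, Pld4, Clnk, Dntt and Cavin2 were still called.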

How the results depend on the processing

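The count of 1495 called genes was 947 to 1655 with 1 LT-HSC array left out and 684 without the 4 FL arrays described with sgEzh2. With a fold of at least 2 required as well it was 568. A fit of the 6 LT-HSC arrays alone called 372. That fit has fewer residual degrees of freedom and also takes its spread from these arrays only. The count was between 1460 and 1820 without both c arrays, without the 4 arrays of narrow spread, and under the replicate block, the scaling, filter, probe set, weight and estimation alternatives. Of the calls, 40.2% were higher in FL, against 496 of 1655 without BM c and 27.7% in the LT-HSC arrays alone. The share was 28.7% without the sgEzh2 arrays, 31.0% without FL a and 22.9% at 2-fold. Median centring made it 48.6%. The count of 123 genes that differed from the other populations was 59 to 274 with 1 array left out, 290 without both c arrays, 14 without the sgEzh2 arrays and 363 with array weights. With a replicate block the counts were 1460 and 94, and since the letters did not pair the arrays, no call lost under it is read as weaker. No call of a named gene reversed. Of the named genes called, 88 lost the call in the LT-HSC arrays alone, 59 without the sgEzh2 arrays, 37 without FL a, 29 without both c arrays, 21 to 27 without each other array, 25 without the narrow arrays and at most 12 under any other alternative. The cause of these changes was not tested. Signal over background was not given in the sources used here, and leaving out the dimmest 30% of genes left 1484 calls.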
